A study of Rattus norvegicus with 8 samples.

Results

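The 24 genes described here encode 18 integrin chains and 6 laminin chains, the cell surface receptors for extracellular matrix and one of the main families of proteins they bind. They were taken by symbol, as every integrin alpha or beta chain and every laminin chain to which the array's probe table gives a probe set with a single gene symbol, out of 15037 such symbols and 23188 probe sets in all. The rule reads symbols and no measured value, although it was set with earlier results of these data known. Each gene had 1 probe set, and all 24 were tested. The 13 other rat genes of these names in RefSeq, among them those of the alpha V integrin chain and the laminin beta 1 chain, were not analysed here.

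An integrin is a pair of 1 alpha and 1 beta chain that spans the membrane and ties matrix outside the cell to actin inside it through talin, kindlin and the complex of integrin-linked kinase, PINCH and parvin. A laminin is a trimer of 1 alpha, 1 beta and 1 gamma chain that is laid down in basement membranes. In the oligodendrocyte lineage, integrins with the beta 1 chain bind laminin on axons and are known for their part in survival and process outgrowth, whereas integrins with the beta 2 chain belong to leukocytes, microglia included.

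Mixed glial cultures were grown in medium with serum from the brains of Sprague Dawley pups of both sexes at postnatal day 1-2. OPCs were isolated from them by differential attachment and kept in a serum-free defined medium with the growth factors PDGF and bFGF. They were given PBS (4 arrays) or IL-4 at 20 ng/mL (4 arrays) for 3 d. All 8 arrays are of cultures with no genetic change, and by the methods microglia had been shaken off before the OPCs were collected. Each array holds the RNA of a whole culture, in which fewer cells of a type and less RNA per cell cannot be told apart. The methods state 4 biologic replicates for each condition, and the labels do not say which litters they came from.

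Values are log2 RMA signals, on which a difference of 1 is a 2-fold change, and array medians lay between 6.13 and 6.16. Rises and falls are those with an adjusted p under 0.05, where the adjustment runs over all 23188 probe sets. Signals under 5 are called dim, since the means of 914 of 1024 olfactory receptor genes (89.3%), which these cultures are not thought to use, lie there. Differences of dim genes cannot be read exactly, and 153 of those 1024 genes rose and 118 fell, where 12% of all probe sets rose and 19.7% fell. Passing the test is therefore no sign that a dim gene is expressed. Defining genes of the oligodendrocyte lineage were bright, with Olig2 at 15.92 and Mbp at 19.45 with PBS. The mean of 9 mature oligodendrocyte markers was between 14.22 (array 1) and 15.63 (array 2) with PBS and between 15.66 and 15.79 with IL-4. Of the 9, 5 rose and 0 fell (6 and 0 by limma with p under 0.05 before adjustment). The mean of 8 OPC markers ran from 13.68 (array 2) to 14.06 (array 1) with PBS and from 13.68 to 13.77 with IL-4. Of the 8, 0 rose and 2 fell (0 and 2 also before adjustment). These were Nkx2-2, with a log2 difference of -0.84 (adjusted p = 0.0019), and Sox10, with one of -0.455 (adjusted p = 0.011). The part of such differences, between treatments or between PBS arrays, in the results below was not tested. The mean of 19 microglia and macrophage markers was 10.47 on PBS array 4, between 9.02 and 9.26 for the remaining PBS cultures and between 9.95 and 10.08 with IL-4, and 1 of the 19, Tmem119, was dim under both treatments. PBS arrays varied more than IL-4 arrays for 20 of the 24 genes, and for 67.6% of all probe sets.

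Among the 24 genes, IL-4 cultures had 2 that rose, 7 that fell and 15 that did not pass. Over all probe sets 12% rose and 19.7% fell. The genes that rose were Itgb5 and Itga1, and those that fell were Itgal, Itga4, Itga10, Lamb2, Lamb3, Lamc1 and Lama5. Past 2-fold, 1 gene rose (Itgb5) and 3 fell (Itgal, Itga4 and Lamb2), where 2.16% and 2.34% of all probe sets did. The 4 IL-4 arrays lay wholly above the 4 PBS arrays for 2 genes and wholly below them for 8, against 12.2% and 20.6% of all probe sets. The median log2 difference was -0.14 over the 24 genes and -0.07 over all probe sets. By family it was -0.01 for the 18 integrins, of which 2 rose and 3 fell, and -0.48 for the 6 laminins, of which 0 rose and 4 fell. Before adjustment limma put 0 laminins higher and 4 lower with p under 0.05. A plain equal-variance test per probe set, adjusted over all of them, also gave 0 and 4. Lama5 was lost after quantile normalization, with the replicate number as a block and without some single arrays. A filter on low signals left Lamc1 as the only laminin, and it fell. The shares above are of few genes, and 9 of the 24 were dim under both treatments. Of the 6 laminins 4 were dim under both treatments and 1 under 1 of them.

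**Figure D1:**
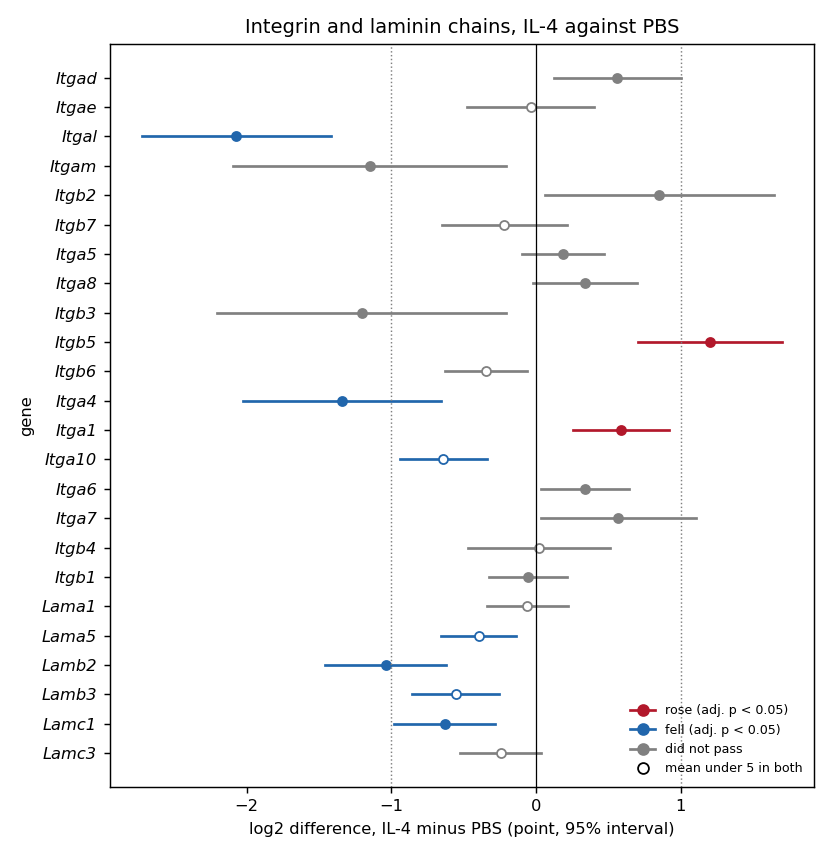
Log2 difference between IL-4 and PBS for each of the 24 integrin and laminin genes on the horizontal axis, by class from leukocyte integrins at the top to laminins at the bottom. Points are limma estimates and lines 95% intervals, with open points for genes dim under both treatments. Itgal lies farthest to the left at -2.07 and Itgb5 farthest to the right at 1.21.

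Promoter sequence is shown for the 3 genes that rose or fell, were not dim under either treatment and had an entry in RefSeq's table (build GRCr8), which held 16 of the 24. Each run is the 250 bases before the annotated start, written in the direction of the gene. Itgb5, which rose, lies at chr11:80449374-80449623 on the minus strand, Itga4, which fell, at chr3:84569765-84570014 on the plus strand, and Lamc1, which fell, at chr13:68051987-68052236 on the minus strand. Capitals mark matches on either strand to the STAT6 motif TTCNNNNGAA, the related STAT motif TTCNNNGAA, the purine box GAGGAA or the GC box GGGCGG.
Itgb5: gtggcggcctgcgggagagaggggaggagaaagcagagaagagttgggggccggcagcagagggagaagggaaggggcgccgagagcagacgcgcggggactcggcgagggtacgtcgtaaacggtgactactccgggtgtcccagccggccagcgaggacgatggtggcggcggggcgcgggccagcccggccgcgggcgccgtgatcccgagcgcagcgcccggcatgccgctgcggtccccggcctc
Itga4: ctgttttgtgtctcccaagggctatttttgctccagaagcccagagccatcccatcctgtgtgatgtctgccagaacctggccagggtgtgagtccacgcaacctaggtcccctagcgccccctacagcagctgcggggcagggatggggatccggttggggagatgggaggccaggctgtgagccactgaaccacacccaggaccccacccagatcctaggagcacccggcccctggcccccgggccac
Lamc1: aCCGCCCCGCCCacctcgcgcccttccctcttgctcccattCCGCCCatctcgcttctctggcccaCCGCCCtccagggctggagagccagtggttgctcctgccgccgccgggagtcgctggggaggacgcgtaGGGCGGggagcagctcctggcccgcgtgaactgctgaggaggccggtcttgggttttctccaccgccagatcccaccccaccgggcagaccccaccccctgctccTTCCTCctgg

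The Itgb5 and Itga4 runs hold no match to these motifs. That of Lamc1 holds 5 GC boxes, of which 2 overlap by 1 base, and 1 purine box. Among the 16 promoters, 0 held the STAT6 motif, 3 the STAT motif (Itga5, Itgam and Itgb6), 8 the purine box and 6 the GC box, which 6.29%, 7.52%, 23.2% and 32.4% of 27457 rat promoters hold. A match here is a description of letters, and its absence says nothing of a factor. GC content was 74.4% for Itgb5, 64.4% for Itga4 and 71.2% for Lamc1, with a median of 52% over all promoters.

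Among the leukocyte integrins, 6 chains were measured, of which 0 rose, 1 fell and 5 did not pass. The shares over all probe sets were 12% for rises and 19.7% for falls. Itgal encodes the alpha chain of LFA-1, the receptor with which leukocytes bind ICAMs. It stood at 7.27, 8.01, 7.24 and 8.77 on PBS arrays 1 to 4 and at 5.62, 6.08, 5.70 and 5.61 on the IL-4 arrays. Every IL-4 array lay below every PBS array, and PBS array 4 was the highest. Its mean went from 7.82 ± 0.73 to 5.75 ± 0.22 (SD, n = 4 arrays each). This is a log2 difference of -2.07 (SE, standard error, 0.30, adjusted p = 7.4e-04), or 4.20-fold lower. Itgb2 encodes the beta chain that pairs with it. Itgb2 stood at 7.70, 6.54, 6.90 and 8.64 with PBS and at 8.24, 8.41, 8.30 and 8.24 with IL-4. The IL-4 arrays lay above 3 of the PBS arrays and below PBS array 4. Its log2 difference of 0.85 (95% interval 0.06 to 1.65, adjusted p = 0.093) did not pass. It was 1.25 without PBS array 4 (adjusted p = 0.0040). Leaving out PBS array 2 gave 0.55 (adjusted p = 0.22) and leaving out PBS array 3 gave 0.67 (adjusted p = 0.23).

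Itgam, the alpha chain of complement receptor 3 and known as CD11b, stood at 6.28, 5.0, 4.73 and 7.11 with PBS and at 4.63, 4.82, 4.62 and 4.45 with IL-4. PBS arrays 1 and 4 were high, while the other two were close to the IL-4 arrays, which are dim. Its log2 difference was -1.15 (95% interval -2.09 to -0.21, adjusted p = 0.062). Without PBS array 2 it was -1.41 (adjusted p = 0.037), and without PBS array 3 it was -1.50 (adjusted p = 0.023). Without the high arrays it was smaller, at -0.98 without PBS array 1 (adjusted p = 0.15) and -0.71 without PBS array 4 (adjusted p = 0.11). Itgad, a further alpha chain that pairs with Itgb2, had a log2 difference of 0.56 (adjusted p = 0.052) and was dim with PBS. It was 0.70 without PBS array 4 (adjusted p = 0.023). Leaving out IL-4 array 1, the highest at 5.88, gave 0.39 (adjusted p = 0.13). The remaining chains were dim under both treatments. They are Itgae, the chain that binds E-cadherin on T cells within epithelia, at -0.04 (95% interval -0.48 to 0.40), and Itgb7, its beta partner, at -0.22 (95% interval -0.65 to 0.21), which was -0.42 without PBS array 4 (adjusted p = 0.043) and -0.07 without PBS array 2 (adjusted p = 0.80).

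Like the mean of the microglia and macrophage markers, 4 of the 6 chains were highest on PBS array 4 among the PBS arrays. Of the 19 markers, 7 rose with IL-4, 2 fell and 10 did not pass, where 12% of all probe sets rose and 19.7% fell. The largest rise was that of the mannose receptor Mrc1, with a log2 difference of 3.25, and Cx3cr1, the fractalkine receptor of microglia, fell by 1.46 on the log2 scale. The complement genes C1qb and C1qc rose by 1.96 and 1.82. The median of the 19 was 0.47. Of 9 lymphocyte and neutrophil markers 0 rose and 2 fell, against the same 12% and 19.7%. The 2 were Cd2 at -1.15 and Csf3r at -1.38. Without adjustment limma again gave 0 and 2 with p under 0.05. Their mean ran from 4.18 to 4.44 with PBS and from 3.95 to 4.16 with IL-4, 6 of them were dim under both treatments, and the T cell markers Cd3e and Cd3g stood at 3.37 and 2.99 with PBS. The part of these cells in the levels of Itgal, Itgam and Itgb2 was not tested.

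**Figure D2:**
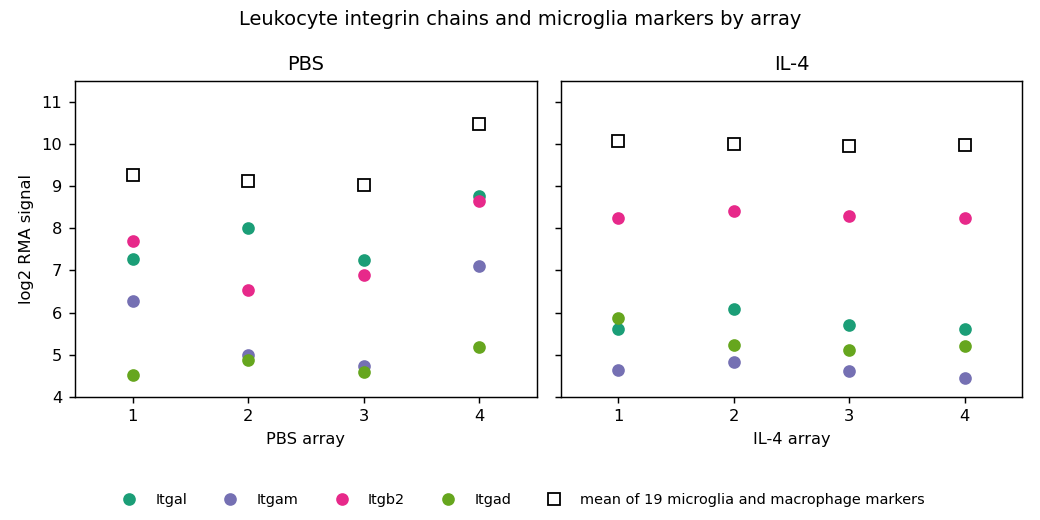
Log2 RMA signal on the vertical axis of Itgal, Itgam, Itgb2 and Itgad on each of the 4 PBS arrays (left) and the 4 IL-4 arrays (right), with the mean of 19 microglia and macrophage markers as open squares. On PBS array 4 the markers, Itgal, Itgam and Itgb2 are all high, and on the IL-4 arrays Itgb2 is near 8.30 while Itgal is between 5.61 and 6.08.

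Itga4, the only member of the class that binds fibronectin and VCAM1 without an RGD motif to be measured, fell with IL-4. It encodes the alpha 4 chain, carried by leukocytes and also by neural crest cells. Itga4 stood at 9.77, 8.52, 9.38 and 10.42 on PBS arrays 1 to 4 and at 8.09, 8.18, 8.28 and 8.18 with IL-4. All IL-4 arrays lay within a narrow band below the lowest PBS array, and PBS array 4 was again the highest. Its log2 difference was -1.34 (SE 0.31, adjusted p = 0.0086), and without PBS array 4 it was -1.04 (adjusted p = 0.012). The plain equal-variance test gave the same difference an adjusted p = 0.056, above the threshold.

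Of the integrins that bind the RGD motif of fibronectin, vitronectin and osteopontin, 5 chains were measured, of which 1 rose, 0 fell and 4 did not pass. Among all probe sets 12% rose and 19.7% fell. Itgb5 encodes the beta chain that pairs with alpha V to bind vitronectin. It stood at 6.89, 7.16, 6.73 and 7.80 with PBS and at 8.74, 8.16, 8.39 and 8.11 with IL-4. The lowest IL-4 array lay above the highest PBS array. Its mean went from 7.15 ± 0.47 to 8.35 ± 0.29 (SD, n = 4 arrays each). This is a log2 difference of 1.21 (SE 0.23, adjusted p = 0.0030), or 2.31-fold higher. Itgb3, whose product also pairs with alpha V, stood at 7.85, 4.96, 6.67 and 6.72 with PBS and at 5.31, 5.50, 5.30 and 5.27 with IL-4. PBS array 2 lay below the IL-4 arrays and the other three above them. Its log2 difference was -1.21 (95% interval -2.21 to -0.20, adjusted p = 0.065), with -1.74 without PBS array 2 (adjusted p = 0.0015) and -0.77 without PBS array 1 (adjusted p = 0.14). Itga5, the alpha chain of the classic fibronectin receptor, was at 0.19 (95% interval -0.10 to 0.47), and Itga8, which binds nephronectin, at 0.34 (95% interval -0.02 to 0.70). Itgb6, an epithelial chain that activates TGF-beta, was dim under both treatments and had a log2 difference of -0.35 (adjusted p = 0.064), which was -0.42 without PBS array 2 (adjusted p = 0.035) and -0.27 without PBS array 4 (adjusted p = 0.13).

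**Figure D3:**
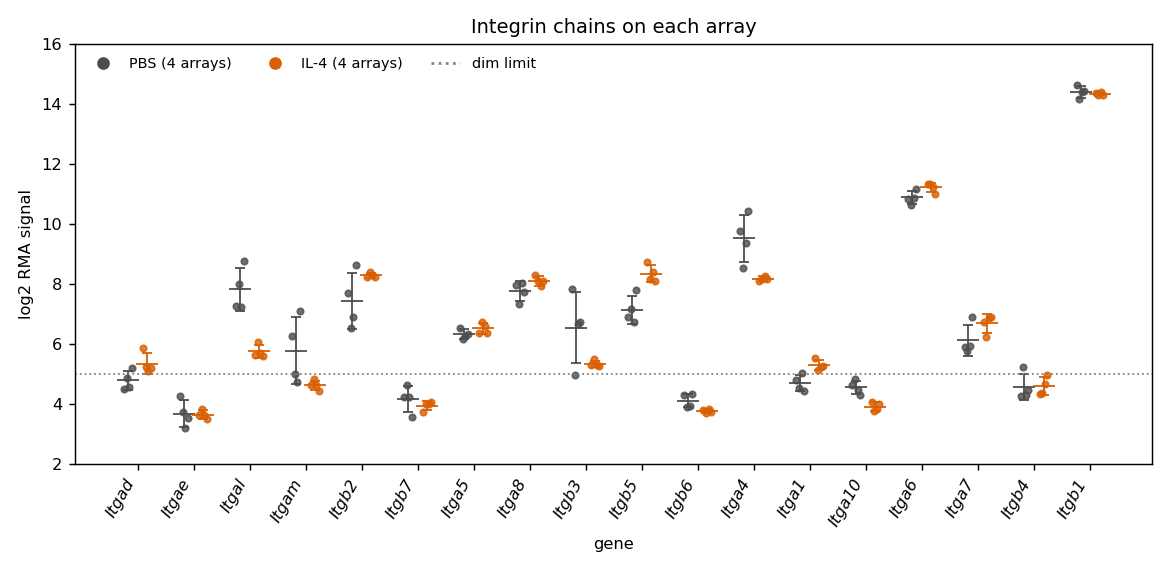
Log2 RMA signal on the vertical axis of each of the 18 integrin genes on the 4 PBS arrays (grey) and the 4 IL-4 arrays (orange). Points are arrays, bars the mean and SD, and the dotted line the dim limit of 5. Itgal and Itga4 show IL-4 arrays wholly below the PBS arrays, Itgb5 wholly above, and Itgb1 within their range.

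The 2 collagen receptor chains moved in opposite directions at low signal. Itga1 stood at 4.79, 4.55, 5.03 and 4.44 with PBS and at 5.52, 5.12, 5.25 and 5.27 with IL-4, a log2 difference of 0.59 (SE 0.15, adjusted p = 0.013). The IL-4 arrays were all higher, though the PBS mean was dim. Itga10, best known from cartilage, stood at 4.65, 4.82, 4.46 and 4.30 with PBS and at 4.06, 3.77, 3.84 and 4.00 with IL-4. All 8 values are dim, and the log2 difference was -0.64 (SE 0.14, adjusted p = 0.0056).

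None of the 3 laminin receptor chains passed the test, and neither did Itgb1, the chain with which most matrix-binding alpha chains pair. Before adjustment limma put 2 of the 3 higher and 0 lower with p under 0.05. In the plain equal-variance test 0 passed after adjustment. Itga6 encodes the alpha chain of the main laminin receptor of the oligodendrocyte lineage. It stood at 10.85, 10.64, 10.88 and 11.18 with PBS and at 11.33, 11.33, 11.24 and 11.00 with IL-4. PBS array 4 lay above 1 of the IL-4 arrays, and the other three lay below all of them. The log2 difference was 0.34 (95% interval 0.03 to 0.64, adjusted p = 0.085). It was 0.44 without PBS array 4 (adjusted p = 0.027), and leaving out PBS array 2 gave 0.26 (adjusted p = 0.18). It was 0.48 after quantile normalization (adjusted p = 0.025). Itga7, the laminin receptor chain best known from muscle, was at 0.57 (95% interval 0.03 to 1.10, adjusted p = 0.098), at 0.82 without PBS array 4 (adjusted p = 0.0059) and at 0.45 without PBS array 2 (adjusted p = 0.21). Itgb4, the partner of Itga6 in hemidesmosomes, was dim under both treatments, at 0.02 (95% interval -0.47 to 0.51).
Itgb1 stood at 14.63, 14.15, 14.40 and 14.42 with PBS and at 14.38, 14.30, 14.41 and 14.29 with IL-4. The IL-4 arrays lay within the range of the PBS arrays. Its log2 difference was -0.06 (95% interval -0.32 to 0.21, adjusted p = 0.76).

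Chains that share a partner or a dimer were set against each other within each array, in 3 pairs chosen after their values were seen. The log2 signal of Itgal minus that of Itgb2 lay between -0.43 and 1.47 with PBS and between -2.63 and -2.33 with IL-4, a shift of -2.92. Itga4 minus Itgb1 ran from -5.63 to -4.0 with PBS and from -6.29 to -6.11 with IL-4, a shift of -1.29. Itgb5 minus Itgb3 ran from -0.96 to 2.20 with PBS and from 2.66 to 3.43 with IL-4, a shift of 2.41. Since the pairs were chosen for chains that moved apart, these values are a description with no test. The size of such a difference depends on the probes and only its shift between treatments is read here. Without any single array the shifts ran from -3.19 to -2.56, from -1.54 to -0.99 and from 1.89 to 2.95.

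All 6 laminin chains had lower means with IL-4, as did 13184 of all 23188 probe sets. Of the 6 chains 4 fell, where 19.7% of all probe sets did. Lamc1 encodes the gamma 1 chain, the gamma chain of most laminins, and is the only one of the 6 that was not dim under either treatment. It stood at 11.06, 10.31, 10.63 and 10.51 with PBS and at 10.11, 9.83, 10.09 and 9.96 with IL-4. The groups did not overlap, with PBS array 1 the highest. Its mean went from 10.63 ± 0.32 to 10.00 ± 0.13 (SD, n = 4 arrays each). This is a log2 difference of -0.63 (SE 0.16, adjusted p = 0.013), or 1.55-fold lower. Lamb2 encodes the beta 2 chain, known from synaptic and vascular basement membranes. It stood at 5.60, 5.65, 5.85 and 5.02 with PBS and at 4.75, 4.44, 4.15 and 4.62 with IL-4. The IL-4 arrays all lay below the PBS arrays and were dim, and the log2 difference was -1.04 (SE 0.19, adjusted p = 0.0025).
The other chains were dim throughout. Lamb3, a chain of the laminin of skin, was at -0.56 (SE 0.14, adjusted p = 0.011), and Lama5, the alpha chain of vascular and epithelial basement membranes, at -0.40 (SE 0.12, adjusted p = 0.027). The call of Lama5 was lost after quantile normalization (adjusted p = 0.053) and without any 1 of PBS arrays 1 and 3 and IL-4 arrays 1 to 3. Lamc3 was at -0.25 (95% interval -0.52 to 0.03) and Lama1, the alpha chain of the early embryo, at -0.06 (95% interval -0.34 to 0.22). Markers of cells that make much basement membrane moved both ways, as did all probe sets, of which 12% rose and 19.7% fell. Of 10 endothelial markers 3 rose and 2 fell, and 5 were dim under both treatments, among them Cdh5 at 3.85 with PBS and 3.26 with IL-4, and their mean ran from 4.39 to 4.50 with PBS and from 4.71 to 4.78 with IL-4. Those that rose were Pecam1 at 1.85, Esam at 1.44 and Emcn at 0.53, and Esam went from 5.80 to 7.24. Those that fell were Cdh5 at -0.59 and Tie1 at -0.61, both dim under both treatments. Among PBS arrays Pecam1 was highest on array 4, at 5.29 against 4.00 to 4.30, as was the mean of the microglia and macrophage markers. Of 11 fibroblast and pericyte markers 2 rose and 4 fell, and 6 were dim under both, their mean ran from 5.15 to 5.18 and from 4.82 to 4.96, and Pdgfrb, Col3a1 and Rgs5 were among those that fell, at dim levels, while the actin gene Acta2 rose from 9.38 to 10.02. Astrocyte markers, of the cell layer from which the OPCs were shaken, were brighter. Of 9 measured 3 rose and 3 fell, and their mean ran from 8.89 to 9.30 with PBS and from 9.22 to 9.47 with IL-4. S100b, Slc1a2 and Gfap rose by 2.39, 1.63 and 1.05, while Slc1a3, Fgfr3 and Gja1 were at -1.03, -0.995 and -0.51. The part of any of these cell types in the laminin levels was not tested.

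**Figure D4:**
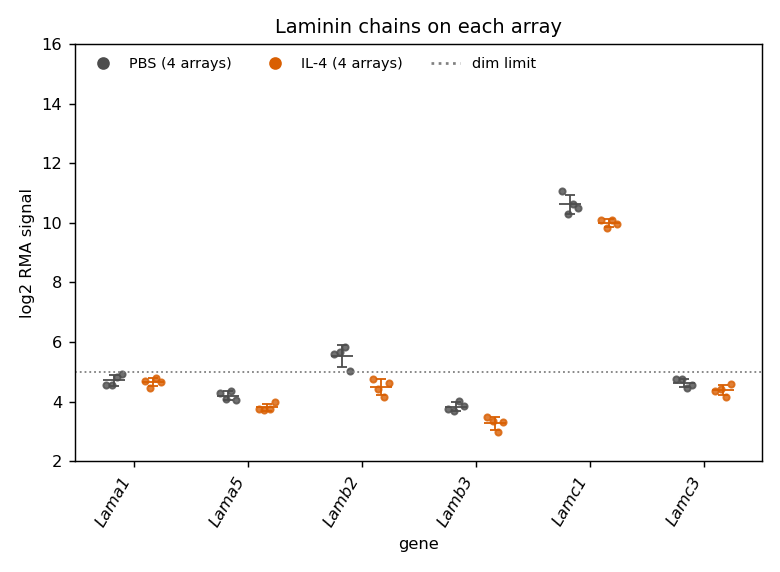
Log2 RMA signal on the vertical axis of the 6 laminin genes on the 4 PBS arrays (grey) and the 4 IL-4 arrays (orange), with points for arrays, bars for the mean and SD, and the dim limit of 5 dotted. Lamc1 went from 10.63 to 10.00, Lamb2 crossed the limit from 5.53 to 4.49, and the other 4 lie under it.

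Of 9 basement membrane genes and laminin receptors other than integrins, 0 rose, 1 fell and 8 did not pass. Of all probe sets 12% rose and 19.7% fell. The gene of the 9 that fell was Nid2, which encodes nidogen 2, the linker of laminin to collagen IV. It went from 8.67 ± 0.16 to 7.28 ± 0.34 (SD, n = 4 arrays each). This is a log2 difference of -1.40 (adjusted p = 3.0e-04). Before adjustment limma put 2 higher and 2 lower with p under 0.05. Dag1, which encodes dystroglycan, a laminin receptor, was at -0.48 (adjusted p = 0.11), with 15.27 and 15.02 on PBS arrays 1 and 3 and 14.16 to 14.33 on all others. The median of these 9 was -0.09. Without PBS array 4, 2 rose in place of 0 (Sdc1 and Sparc).

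Inside the cell, 24 genes of the proteins that bind integrin tails or link them to actin were measured. Of these, 4 rose, 8 fell and 12 did not pass, with a median log2 difference of -0.10. Over all probe sets 12% rose and 19.7% fell, and the median was -0.07. The 8 of the 24 that fell include Ilk, which encodes integrin-linked kinase, Lims1, which encodes PINCH1, and Parva and Parvb, which encode alpha- and beta-parvin. Parvb stood at 13.93, 11.96, 12.95 and 12.84 with PBS and at 10.46, 10.16, 9.89 and 10.12 with IL-4. Each IL-4 array lay more than 1 log2 unit below each PBS array. The log2 difference was -2.76 (SE 0.33, adjusted p = 2.8e-04), or 6.79-fold. Ilk stood at 15.41, 14.83, 15.14 and 14.73 with PBS and at 13.52, 13.77, 13.66 and 13.57 with IL-4, a log2 difference of -1.40 (SE 0.15, adjusted p = 2.0e-04). Lims1 had a log2 difference of -0.52 and Parva one of -0.72. Lims1 and Parva were singled out after their values were seen, for their place in the complex of integrin-linked kinase, PINCH and parvin. Their paralogs Lims2 and Parvg, the latter of blood cells, did not pass, at 0.05 (adjusted p = 0.83) and 0.36 (adjusted p = 0.40). Tns1, which encodes tensin 1, fell by 1.44 on the log2 scale. Ptk2, the focal adhesion kinase gene, Fyn, the Src family kinase that acts downstream of integrins in oligodendrocytes, and Itgb1bp1, which encodes a binder of the beta 1 tail, fell by 0.42, 0.32 and 0.36.
The 4 that rose were Nedd9 at 1.12, Src at 1.04, Fermt3 at 0.96 and Ptk2b at 0.72. Fermt3 encodes kindlin-3, the kindlin of blood cells, and Ptk2b the focal adhesion kinase relative PYK2. Fermt3 went from 6.77 ± 0.23 to 7.73 ± 0.10 (SD, n = 4 arrays each) and did not overlap. Its widely expressed relative Fermt2 was at -0.11 (adjusted p = 0.54), and Tln1, which encodes talin 1, at 0.17 (adjusted p = 0.46). After quantile normalization 5 of the 24 fell, and without IL-4 array 1 the number was 4. Without any 1 of IL-4 arrays 2 and 4 and PBS arrays 1 and 3 it was 5, and with the IL-4 arrays averaged to 1 sample 0 rose and 0 fell.

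**Figure D5:**
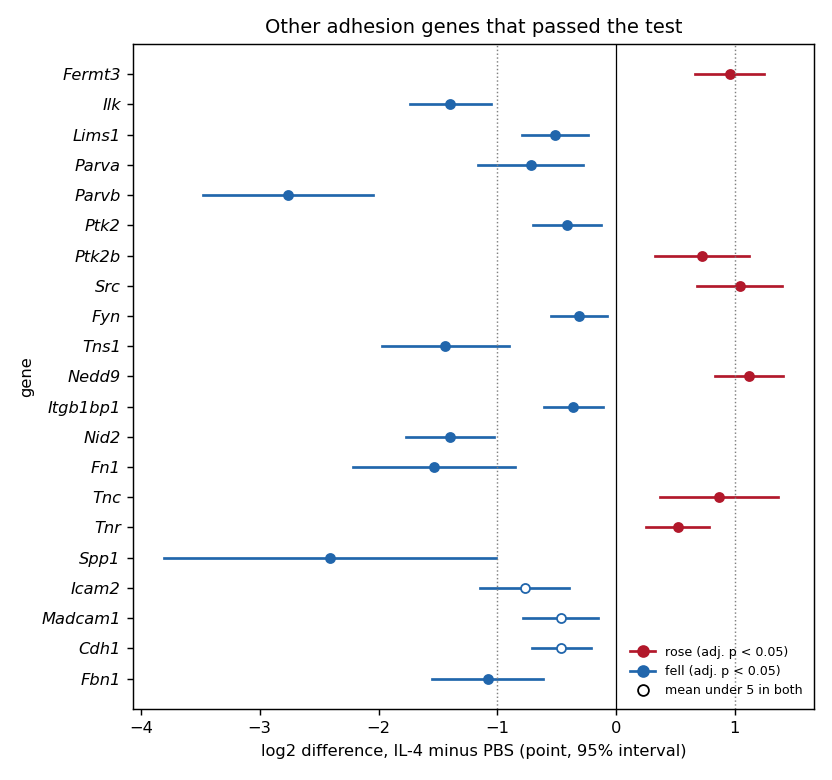
Log2 difference between IL-4 and PBS on the horizontal axis for the 21 genes of the cytoplasmic adhesion, basement membrane and ligand lists that passed the test, from Fermt3 at the top to Fbn1. Points are limma estimates, lines 95% intervals and open points genes dim under both treatments. Parvb at -2.76 and Spp1 at -2.41 lie farthest to the left.

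Ligands of integrins other than laminins moved both ways. Of 20 measured, 2 rose, 6 fell and 12 did not pass, with a median log2 difference of 0.02, and 8 were dim under both treatments. The shares over all probe sets were 12% for rises and 19.7% for falls, with a median of -0.07. Fn1, which encodes fibronectin, stood at 7.90, 9.66, 8.43 and 8.11 with PBS and at 7.08, 6.89, 6.93 and 7.08 with IL-4, a log2 difference of -1.53 (SE 0.31, adjusted p = 0.0043). PBS array 2, the lowest for Itga4, was the highest for Fn1. Spp1, which encodes osteopontin, reached 9.66 on PBS array 4, against 5.74 to 7.39 for the remaining PBS cultures and 4.73 to 5.53 with IL-4, a log2 difference of -2.41 (adjusted p = 0.015). It is also made by activated microglia and macrophages, whose markers were highest on PBS array 4, and their part was not tested. Fbn1, which encodes fibrillin 1, had a log2 difference of -1.08. The remaining falls were of dim genes, Icam2, Madcam1 and Cdh1, at -0.77, -0.47 and -0.46. Tnc and Tnr, which encode the tenascins C and R, rose by 0.87 and 0.52. Vtn and Vcam1, ligands of Itgb5 and Itga4 dimers, did not pass, at -0.17 (adjusted p = 0.33) and 0.23 (adjusted p = 0.33).

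The tests rest on 4 arrays a treatment. When the 4 closely spaced IL-4 arrays were averaged to 1 sample, 0 of the 24 genes rose and 0 fell, where 56 of all 23188 probe sets rose and 16 fell. Limma then put 1 of the 24 higher and 4 lower with p under 0.05 before adjustment.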

How the data were processed

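RNA from 8 rat OPC cultures (PBS, n = 4, IL-4, n = 4) was hybridised to 1-colour Affymetrix Clariom S arrays, 1 sample an array, and groups were taken from the sample labels. The deposited values are log2 signals that the authors made from the scans by RMA, which corrects background, normalizes arrays between each other and summarises probes. The submitters' processing notes name Affymetrix Expression Console, Transcriptome Analysis Console 4.0 and the rn6 build. RMA shrinks differences of dim probe sets, and the number of arrays limits precision.

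Differences were tested in R 4.3.3 with limma 3.58.1 (lmFit and eBayes) on all 23188 probe sets with no filter and Benjamini-Hochberg adjustment over all of them. Simulated data with known changes gave 12 of 50 recovered at 1.5-fold, 44 of 50 at 2-fold and 48 of 50 at 3-fold, with 5 of 22988 unchanged ones called. Its noise had the same spread under both treatments, was independent between probe sets, and few probe sets were changed. In the data PBS arrays varied more and many probe sets passed, so these rates may not hold there. Gene names came from the platform's probe table. Figures used Python 3.11.15. Arrays that share values were looked for and 0 pairs were found.

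Members, lists and the dim limit were chosen with earlier results of these data known, and the study's own call tables rest on these same arrays. Every member is named. Array values are given for members that passed at over 1.5-fold and for Itgb1 and Itga6, and up to 4 genes of each other list were named by the size of their difference. Array values of Itgb2, Itgam and Itgb3 and of genes of other lists, and further names in those lists, were added after values were seen. Alternatives were leaving out each array, a filter on low signals, quantile normalization, array weights, subtraction of array medians, an intensity trend with a robust prior, IL-4 arrays averaged to 1 sample, a plain equal-variance test per probe set (not the study's array software) and a replicate block. The probe set of lowest mean per gene was also set as an alternative and is the same one here.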

Additional observations from a re-analysis of the deposited data

Results flagged for a closer look

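In 48 groups of 4 arrays, 1 for each gene and treatment, 2 held an array far from the others, and chance alone marks about 1 group in 20. Itga7, a laminin receptor chain, had a signal of 6.89 on PBS array 4, against 5.76 to 5.93 for the remaining PBS cultures. Itgad, a leukocyte alpha chain, had one of 5.88 on IL-4 array 1, against 5.10 to 5.22 for the remaining IL-4 cultures.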

How the results depend on the processing

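Counts of the 24 genes that rose (2) and fell (7) moved with some settings. With the filter on low signals, which kept 11 of them, 1 rose and 3 fell. With array weights 5 rose and 8 fell. Without any single array, 2 to 6 rose, 6 of them without PBS array 4. Past 2-fold 1 to 2 rose, Itgb2 joining Itgb5 without PBS array 4. In the same settings 6 to 10 fell, 10 of them without PBS array 2, where Itgam, Itgb3 and Itgb6 were added. Past 2-fold 2 to 4 fell. Lamb2 was under 2-fold without IL-4 array 3 and without PBS array 3, at -0.93 in each. With the IL-4 arrays averaged to 1 sample 0 rose and 0 fell, and past 2-fold also 0 and 0. In that setting 56 of all probe sets rose and 16 fell. The sign turned for genes that had not passed. Itgae was at 0.033 with array weights, at 0.015 after quantile normalization and at -0.20 to 0.15 without any single array. Itgb1 was at 0.055 after quantile normalization and at -0.14 to 0.022 without any single array, Itgb4 at -0.11 to 0.24 and Lama1 at -0.11 to 0.0092. Replicate numbers are shared by the groups, but same-numbered arrays did not deviate together (correlations of -0.02 to 0.0059). With the number as a replicate block 3 rose and 7 fell, with Itga7 (adjusted p = 0.037) and Itgb3 (adjusted p = 0.049) added and Lama5 lost, and 5 cytoplasmic adhesion genes fell in place of 8. Apart from the averaged setting, and the filter where it left a gene out, Itgal, Itgb5, Itga1, Itga10, Lamb2, Lamb3 and Lamc1 passed in every setting run, and Itga4 in all but the plain equal-variance test (adjusted p = 0.056). Differences of genes with signals near or under 5 are limited by background.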
